A study of Mus musculus with 93 samples.

Results

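The T-box genes Tbx1, Tbx2, Tbx3, Tbx4, Tbx5, Tbx18 and Tbx20 encode transcription factors that act in the heart and the tissues around it. Their expression was followed in cells sorted by reporters from mouse embryos and from precardiac spheroids. The sort used a reporter of the first heart field (FHF) and a lineage reporter for the second heart field (SHF). Whether the sorted spheroid cells were FHF or SHF progenitors was not tested here. The authors of the study examined it by qPCR of marker genes, differentiation and knockdown. The 7 genes were chosen by name, and all of them are among the 24514 gene symbols of the count table. T-box proteins share a DNA-binding domain, the T-box, and differ in what they do to their targets. Tbx5 and Tbx20 take part in the activation of chamber myocardial genes, Tbx2 and Tbx3 repress the same genes in myocardium that does not form chambers, Tbx18 is expressed in the sinus horns and the epicardium, Tbx1 keeps SHF cells of the pharyngeal region proliferating and undifferentiated, and Tbx4 is best known from the hindlimb, the lung and the allantois. In the mouse embryo, Tbx5 is a classical marker of the FHF and Tbx1 of the anterior SHF.

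Cells carried 3 alleles in every group: Hcn4-GFP, a reporter of the FHF and later of the conduction system, Tbx1-Cre, and Ai9, a reporter that turns on a red protein (RFP) for good once Cre has acted. GFP+ cells therefore reported current Hcn4-GFP expression, while RFP+ cells had expressed Tbx1-Cre at some time, whether or not Tbx1 was still transcribed. In vivo libraries came from dissected embryos (5 GFP+ and 4 RFP+ libraries, titled E8.5 where the protocol gives E7.75). In vitro libraries came from spheroids at day 5.5 (38 GFP+ and 46 RFP+ libraries) of 1 embryonic stem cell line derived from blastocysts of the same genotype. The spheroids had been induced with Activin A, Bmp4 and Wnt proteins, singly or together, and the combination used for these wells is not given in the labels. Each library was made from 10 sorted cells in 1 well of a plate, and no label ties a well to an embryo or a differentiation. The p-values therefore measure only the spread between wells, which may be technical.

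Libraries held from 712732 to 2525460 counted reads in vivo and from 445071 to 5658882 in vitro, apart from the spheroid GFP+ well C9, which held 6288 reads and no read of any of the 7 genes. Spheroid RFP+ wells filled plate columns 1 to 6 and GFP+ wells columns 7 to 11, so that population and plate position cannot be told apart in vitro. In 7 plate rows the RFP+ wells of columns 3 and 4 were near-identical (r of their log2 levels from 0.977 to 0.994, against at most 0.972 for any other pair of RFP+ wells). The edgeR fits for spheroids were therefore repeated with each of these pairs summed into 1 library. Permutation tests, shares of wells, counting intervals and correlations kept every RFP+ well and count these pairs as separate wells. All 8 cardiomyocyte markers listed were detected in embryo GFP+ cells, with a summed level of 17800 to 51500 CPM (counts per 1000000 counted reads), against 1170 to 2250 CPM in embryo RFP+ cells. In spheroid GFP+ cells the same 8 markers summed to 0 to 1250 CPM (median 53.1), and in spheroid RFP+ cells to 13.9 to 139 CPM (median 58.4), both below the embryo GFP+ range. Of the 4 markers tested in spheroids, 3 were nonetheless called higher in GFP+ cells and none in RFP+ cells (6 of 8 without a filter on low counts). Over all genes tested in spheroids, 40.1% were called higher in GFP+ cells, and 35.3% without a filter. Epithelial and endodermal markers such as Krt8, Krt18 and Epcam summed to 1030 to 6650 CPM in spheroid GFP+ cells and to 84.9 to 1100 CPM in spheroid RFP+ cells, with all 11 listed markers detected in both. Without a filter, 5 of the 11 were called toward GFP+ cells, 3 toward RFP+ cells and 3 were not called. Embryo GFP+ libraries detected 6189 to 8302 genes and embryo RFP+ libraries 10263 to 13052, so that zeros were more frequent in embryo GFP+ wells over all genes. Blood markers summed to at most 13.2 CPM in every group other than embryo RFP+ (up to 1150 CPM), and neural markers to at most 120 CPM in any library. Fewer cells of a type in a well and less RNA per cell cannot be told apart in pools of cells.

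In outline, Tbx5 and Tbx20 were the only 2 of the 7 genes that separated all in vivo GFP+ libraries from all in vivo RFP+ libraries, and both were more than 100-fold lower in spheroid GFP+ cells than in embryo GFP+ cells. In spheroids, Tbx1 and Tbx18 were higher in RFP+ cells, whereas Tbx2, Tbx3, Tbx4, Tbx5 and Tbx20 were higher in GFP+ cells, at low levels. Tbx4 was read in spheroids and in no embryo library. CPM values below were scaled with the trimmed mean of M-values (TMM) over all 93 libraries.

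**Figure D1:**
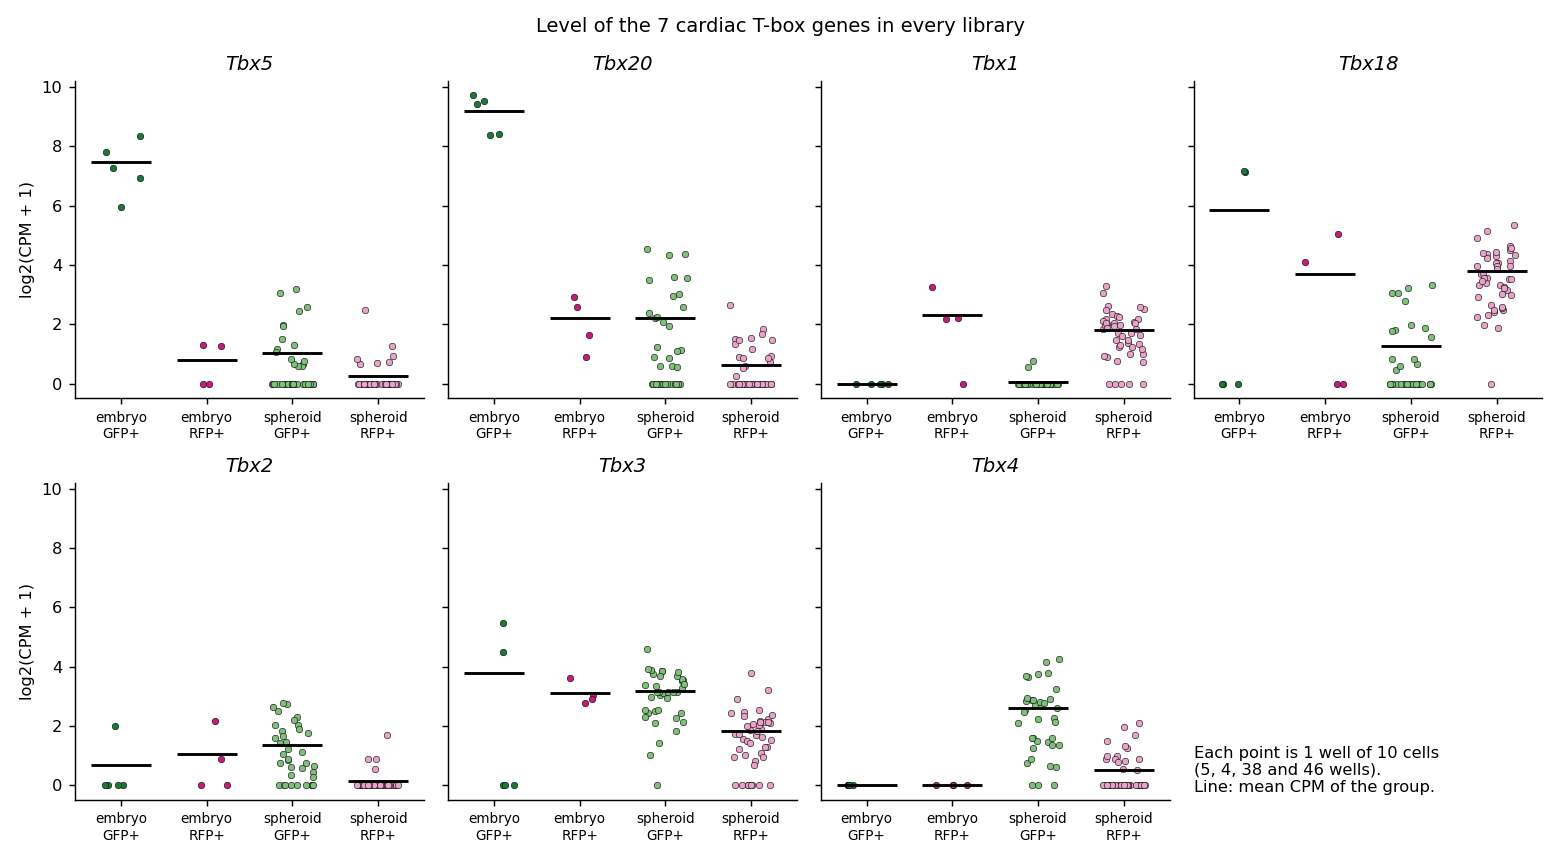
Level of each of the 7 T-box genes as log2(CPM + 1) in every library of the 4 groups (1 point per well, line at the mean CPM of the group). Tbx5 and Tbx20 stand far above all other groups in the 5 embryo GFP+ wells, Tbx1 and Tbx18 are the genes with more reads in spheroid RFP+ than GFP+ wells, and Tbx4 lies at 0 in all 9 embryo wells.

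The first question was whether the chamber activators mark the GFP+ population in vivo, as FHF genes would. Tbx5, on chromosome 5 (chr5:119832668-119885219, GRCm38, plus strand), was read in all 5 embryo GFP+ libraries, at 61.4, 122, 221, 327 and 152 CPM in wells A12, B12, C12, D12 and E12. In embryo RFP+ libraries it was at 1.46 and 1.41 CPM in wells F12 and G11 and was not read in wells G12 and H11. The lowest GFP+ library was thus above the highest RFP+ library, and the means were 177 ± 102 CPM (SD, n = 5) and 0.716 ± 0.827 CPM (SD, n = 4). The mean was 247-fold higher in GFP+ cells, and the ratio of pooled counts was 256 with a 95% exact counting interval of 99.9 to 942. Differences were called at an adjusted p under 0.1 over all genes tested, and a negative log2 fold change means a lower level in RFP+ cells. For Tbx5 it was -7.80 (SE 1.15, edgeR adjusted p = 0.00122), and the exact permutation test gave p = 0.00794, the smallest value that 5 against 4 libraries allow.

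Tbx20, which is needed for the growth of chamber myocardium, lies on chromosome 9 (chr9:24718138-24774303, minus strand). It was at 840, 737, 334, 688 and 342 CPM in embryo GFP+ wells A12 to E12, and at 6.56, 2.11, 0.844 and 5.01 CPM in RFP+ wells F12, G11, G12 and H11. The populations did not overlap here either. Mean levels were 588 ± 235 CPM (SD, n = 5) and 3.63 ± 2.62 CPM (SD, n = 4), which is 162-fold higher in GFP+ cells (ratio of pooled counts 171, 95% counting interval 111 to 281). The log2 fold change was -7.32 (SE 0.61, edgeR adjusted p = 2.06e-05; exact permutation p = 0.00794). Of the 4 members that passed the filter on low counts in vivo, Tbx5 and Tbx20 were the 2 called higher in GFP+ cells, where 3.88% of all genes tested were called in that direction. DESeq2 called the same 2 against 4.21% of all genes. The median gene was at 0.09 in this comparison and at -0.036 with RLE size factors, another scaling, and relative to it Tbx5 stood at -7.89 and Tbx20 at -7.41. The absence of overlap with higher values in GFP+ cells was shared by 2.04% of the genes read in vivo.

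Per kilobase of exon, which allows genes to be compared, Tbx20 (49.0 ± 19.6 CPM per kb, SD, n = 5) and Tbx5 (37.8 ± 21.8 CPM per kb) were the highest members in embryo GFP+ cells, and the difference between them was smaller than their spread. Tbx18 followed at 12.0 CPM per kb, Tbx3 at 1.94 and Tbx2 at 0.167, while Tbx1 and Tbx4 had no read. The 2 leading genes did not vary together from well to well, since Tbx5 was lowest in the well where Tbx20 was highest (A12). The map of reads in the 9 embryo libraries shows both genes filled across the GFP+ wells, with every other member patchy or empty there.

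**Figure D2:**
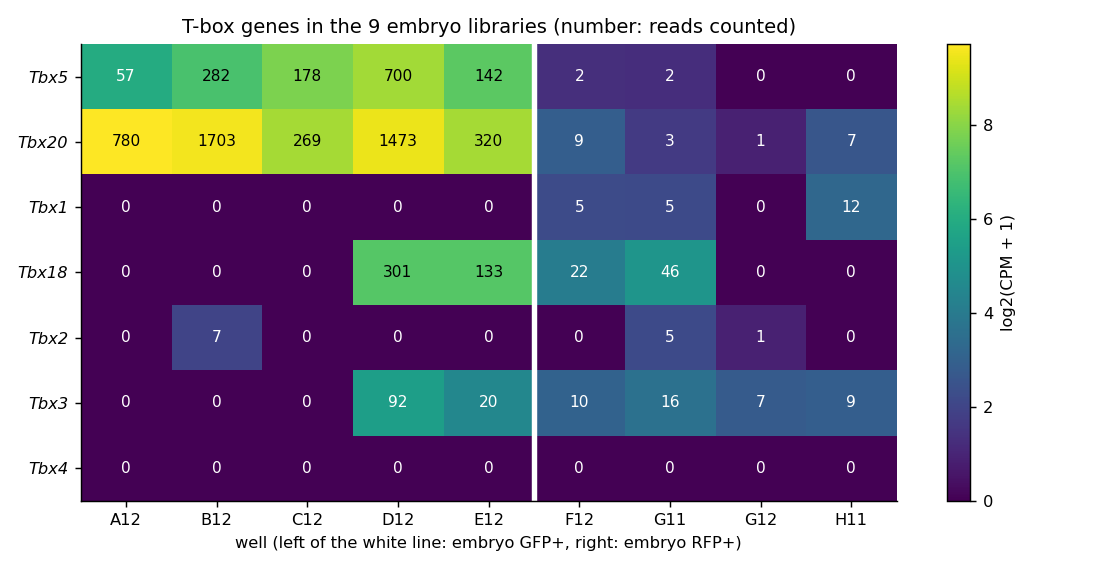
Reads counted for each T-box gene (numbers) and log2(CPM + 1) (color) in the 5 GFP+ and 4 RFP+ embryo libraries, 1 column per well. Tbx5 and Tbx20 have 57 to 1703 reads in each GFP+ well and at most 9 in each RFP+ well, Tbx3 and Tbx18 are read in GFP+ wells D12 and E12 and not in A12, B12 or C12, and Tbx4 has no read.

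Natriuretic peptide A (Nppa) is the best-studied chamber target of Tbx5, acting with Nkx2-5, and its proximal promoter is shown because it holds both sites that these factors are known for. Searched on both strands of the 250 bases before the start site were the T-box half-site AGGTGT, the NKX motif AAGTGG and the GATA motif AGATAA, which occur in 11.8%, 14.1% and 9.99% of 32851 mouse promoters of the same length. The Nppa window (RefSeq, GRCm38.p6, chr4:148000472-148000721, plus strand) holds a T-box half-site on the minus strand at position -248 and an NKX motif at position -239, counted from the start site, and the 2 do not overlap. The Tbx20 window (chr9:24774304-24774553, minus strand), shown beside it because Tbx20 has the highest level of the members, holds none of the 3 motifs, which says only that these letters are not in this window. Both are written 5′ to 3′ with motifs in capitals.
Nppa: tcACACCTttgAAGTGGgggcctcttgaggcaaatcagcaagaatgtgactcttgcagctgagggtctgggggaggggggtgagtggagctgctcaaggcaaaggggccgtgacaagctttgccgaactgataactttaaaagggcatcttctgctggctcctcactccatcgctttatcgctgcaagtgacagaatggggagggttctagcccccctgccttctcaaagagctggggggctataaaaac
Tbx20: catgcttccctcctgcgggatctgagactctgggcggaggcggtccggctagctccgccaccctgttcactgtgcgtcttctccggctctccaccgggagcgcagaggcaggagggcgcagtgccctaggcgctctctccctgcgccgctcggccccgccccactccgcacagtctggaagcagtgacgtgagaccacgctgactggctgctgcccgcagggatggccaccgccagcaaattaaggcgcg

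Nppa itself, singled out after its values were seen, was at 0, 766, 31, 0 and 433 CPM in embryo GFP+ wells A12 to E12, and its only read in RFP+ cells was in well G12 (0.844 CPM). Although Tbx5 and Tbx20 were read in each of the 5 GFP+ wells, Nppa was therefore read in only 3 of them. Of 12 chamber myocardium genes linked to T-box factors, 8 were tested in vivo. Of these, 3 were called in favor of GFP+ cells and none in favor of RFP+ cells, with a median log2 fold change of -3.47 against 0.09 for all genes tested. Over all genes tested, 3.88% were called higher in GFP+ cells. The first was Atp2a2, the calcium pump of the sarcoplasmic reticulum (1380 ± 335 against 184 ± 34.4 CPM, adjusted p = 2.46e-05). The others were Bmp10, a growth factor of trabecular myocardium (83.3 ± 31 against 1.93 ± 3.87 CPM, adjusted p = 0.0766), and Ryr2, the calcium release channel (122 ± 94.9 against 7.78 ± 9.66 CPM, adjusted p = 0.0988). The gap junction gene Gja1, a target that Tbx2 and Tbx3 repress, was at 314 ± 168 CPM in GFP+ and 298 ± 126 CPM in RFP+ cells.

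Of 10 cardiac partners of T-box factors, 9 were tested in vivo, 2 were called higher in GFP+ cells and none higher in RFP+ cells (median log2 fold change -1.03). Over all genes tested, the share called higher in GFP+ cells was 3.88%. Mef2c, a MADS-box factor of muscle, was at 1220 ± 418 CPM in GFP+ and 117 ± 27.5 CPM in RFP+ cells (adjusted p = 4.08e-05). Gata4, which binds Tbx5, was at 138 ± 89.0 and 6.32 ± 9.29 CPM (adjusted p = 0.0836), and the related Gata6 at 104 ± 118 and 24.7 ± 9.83 CPM did not pass (adjusted p = 0.351). All 8 cardiomyocyte markers were called higher in GFP+ cells as well, and the part of cardiomyocyte content in their difference was not tested.

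In the spheroids, both activators were still higher in GFP+ cells, but from a low base. Of 4 cardiomyocyte markers tested in spheroids, 3 were called toward GFP+ cells and 1 was not called, where 40.1% of all genes were called toward GFP+ cells. Those called included Ttn (52.3 ± 79.7 against 5.49 ± 6.49 CPM, adjusted p = 1.69e-14), Tnni1 (56.4 ± 82.1 against 15.2 ± 10.5 CPM, adjusted p = 2.5e-09) and Myl7 (42.3 ± 95.9 against 16.6 ± 19.7 CPM, adjusted p = 0.00524). Each of these had an SD above its mean in GFP+ wells. Summed over all 8 markers, the median was 53.1 CPM in GFP+ and 58.4 CPM in RFP+ wells. The part of cardiomyocyte content in the Tbx5 and Tbx20 differences was not tested here either. Tbx20 was read in 22 of 38 GFP+ wells (57.9%, 95% exact binomial interval 40.8% to 73.7%) and in 17 of 46 RFP+ wells (37%, 23.2% to 52.5%). Its level ran from 0 to 22 CPM (median 0.678) in GFP+ and from 0 to 5.35 CPM (median 0) in RFP+ wells, with means of 3.59 ± 5.89 CPM (SD, n = 38) and 0.552 ± 1.02 CPM (SD, n = 46). A few GFP+ wells carried much of the Tbx20 signal, led by B9, G10 and F9 with 22, 19.5 and 19.2 CPM. The groups overlapped, and the mean was 6.51-fold higher in GFP+ cells (pooled ratio 7.53, counting interval 5.46 to 10.6). Tbx20 fell below the filter on low counts in vitro, and without a filter its log2 fold change was -2.54 (SE 0.49, edgeR adjusted p = 4.52e-06; permutation p = 0.00055).

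Tbx5 was read in 16 of 38 spheroid GFP+ wells (42.1%, 26.3% to 59.2%) and in 7 of 46 RFP+ wells (15.2%, 6.34% to 28.9%). It ran from 0 to 8.14 CPM in GFP+ wells and from 0 to 4.56 CPM in RFP+ wells, with a median of 0 in both. Mean levels of 1.06 ± 2.02 CPM (SD, n = 38) and 0.207 ± 0.721 CPM (SD, n = 46) differed 5.11-fold (pooled ratio 7.27, 4.21 to 13.4). Tbx5 had a log2 fold change of -2.15 without a filter (SE 0.50, edgeR adjusted p = 0.000131; permutation p = 0.00293). Among the 37 GFP+ wells other than C9, 14 had reads of both Tbx5 and Tbx20, and the r of their log2 levels was 0.328. Tbx5 levels had an r of 0.442 with the total reads of these wells and Tbx20 levels an r of 0.282, and the part of depth in these shares was not tested.

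Between embryo and spheroid GFP+ cells, Tbx5 was 167-fold lower in spheroids by the means (pooled ratio 131, counting interval 107 to 161) and Tbx20 164-fold lower (pooled ratio 147, 131 to 166). The log2 fold changes were -6.92 (SE 0.53, edgeR adjusted p = 3.81e-16) and -7.07 (SE 0.53, adjusted p = 2.09e-16). The median gene was itself 0.665 higher in spheroids on the log2 scale with TMM and 0.217 higher with RLE size factors. Relative to it Tbx5 stood at -7.58 and -7.60 and Tbx20 at -7.74 and -7.71 under the 2 scalings. With Tbx18, these were 3 members called higher in the embryo, where 19.7% of all genes were called in that direction. Tbx4 alone was called higher in spheroids, against 48.3% of all genes. It had no read in embryo GFP+ cells and passed the filter through spheroid wells alone, so a call could go only in that direction. RLE scaling shifted the calls over all genes from 5710 higher and 2326 lower in spheroids to 4687 and 3473. Cardiomyocyte markers were lower too (median of the sum 30100 CPM in vivo and 53.1 CPM in vitro), and their part in the difference was not tested. Stage, culture and source cannot be told apart in this comparison.

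Whether the difference between populations itself differed between sources was tested by subtracting the log2 fold changes. For Tbx20 the change from GFP+ to RFP+ cells was 4.71 less negative in spheroids than in embryos (SE 0.80, adjusted p = 0.0827 without a filter on low counts), and it was 1 of 115 genes so called among 15069 (0.763%). For Tbx5 the difference was of similar size, 5.55 (SE 1.35), and did not pass (adjusted p = 0.153). With the filter, Tbx18 was the only member tested in both sources and was not called (5.29, SE 2.29, adjusted p = 0.419), where 5.26% of all genes were. An interaction term in 1 fit over the 4 groups called 3 of the 5 members tested, against 54.4% of all genes.

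**Figure D3:**
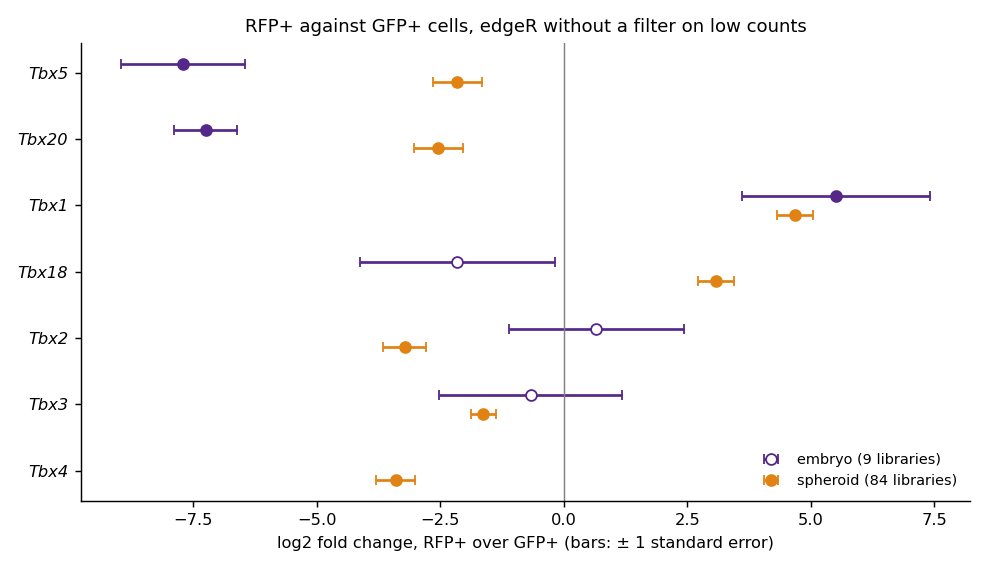
Log2 fold change from GFP+ to RFP+ cells (x axis, ± 1 standard error) for each T-box gene in embryos (9 libraries) and spheroids (84 libraries), from edgeR fits without a filter on low counts, with filled points for adjusted p under 0.1. Tbx5 and Tbx20 lie below -7 in embryos and between -3 and -2 in spheroids, Tbx2 and Tbx18 lie on opposite sides of 0 in the 2 sources and are filled only in spheroids, and Tbx4 has no embryo value because no embryo library read it. The embryo value of Tbx1 is fitted against a group with no read and is no bound.

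Tbx1 stood on the other side. It is the gene whose regulatory sequence drives the Cre that labels RFP+ cells. A higher Tbx1 level in RFP+ cells was therefore favored by the sort, although the label outlasts Tbx1 transcription. Tbx1 (chr16:18580979-18590671, minus strand) had no read in any of the 5 embryo GFP+ libraries and was at 3.64, 3.51, 0 and 8.6 CPM in RFP+ wells F12, G11, G12 and H11, from 5, 5, 0 and 12 reads. One RFP+ library thus lay with the GFP+ libraries. The GFP+ libraries detected fewer genes (median 6830 against 12232), and without a filter the median gene was itself 0.767 higher in RFP+ cells on the log2 scale. The part of either in the Tbx1 difference was not tested. The RFP+ mean of 3.94 ± 3.53 CPM (SD, n = 4) was at least 1.53-fold higher than the GFP+ level, taking 3 counts in each GFP+ library as its limit. Tbx1 was below the filter in vivo, passed without it (edgeR adjusted p = 0.0826, with 10.8% of all genes called higher in RFP+ cells) and gave p = 0.0476 in the exact permutation test. DESeq2 did not call it (adjusted p = 0.21). Leaving out any library other than G12 ended the call in both tests (edgeR adjusted p from 0.109 to 0.175, exact permutation p of 0.107 or 0.143).

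In spheroids, Tbx1 was read in 41 of 46 RFP+ wells (89.1%, 76.4% to 96.4%) and in 2 of 38 GFP+ wells (5.26%, 0.644% to 17.7%), with a single read in each of those 2. Levels ran from 0 to 8.70 CPM (median 2.44) in RFP+ wells and from 0 to 0.677 CPM in GFP+ wells. Mean Tbx1 levels were 2.51 ± 1.84 CPM (SD, n = 46) and 0.0308 ± 0.134 CPM (SD, n = 38), a ratio of 81.7 (pooled ratio 92.5, counting interval 25.3 to 770.0). The log2 fold change was 4.68 without a filter (SE 0.37, edgeR adjusted p = 2.58e-21), with a permutation p of 1e-05, the minimum for 100000 resamples. Thinned to 400000 reads, a Tbx1 read would be expected in 58.8% of RFP+ wells and in 1.25% of GFP+ wells, which keeps the order. Spheroid and embryo RFP+ cells did not differ detectably in Tbx1 (log2 fold change -0.65, SE 0.65, adjusted p = 0.542), with a pooled ratio of embryo to spheroid of 1.58 (0.965 to 2.46).

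The promoter windows of Tbx1 and Tbx18, the 2 genes that were higher in spheroid RFP+ cells, are shown for comparison with the windows above. The upstream of 2 annotated Tbx1 starts (chr16:18590672-18590921, minus strand) holds 1 T-box half-site, at position -76, and the Tbx18 window (chr9:87731261-87731510, minus strand) holds 1 NKX motif, at position -123. None of the 3 motifs was found in the window of the downstream Tbx1 start.
Tbx1: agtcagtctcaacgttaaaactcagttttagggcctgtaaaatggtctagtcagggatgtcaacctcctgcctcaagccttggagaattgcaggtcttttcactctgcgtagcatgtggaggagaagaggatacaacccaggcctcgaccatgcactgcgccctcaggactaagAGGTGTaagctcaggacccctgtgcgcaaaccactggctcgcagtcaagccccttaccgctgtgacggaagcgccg
Tbx18: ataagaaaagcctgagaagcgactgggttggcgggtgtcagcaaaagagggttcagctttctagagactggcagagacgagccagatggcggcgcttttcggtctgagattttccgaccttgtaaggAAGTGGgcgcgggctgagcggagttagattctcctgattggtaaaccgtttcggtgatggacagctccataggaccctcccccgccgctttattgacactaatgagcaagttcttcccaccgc

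Of 16 pharyngeal genes linked to Tbx1, 11 were tested in vivo. Of these, 3 were called in favor of RFP+ cells and none in favor of GFP+ cells (median log2 fold change 2.35), where 6.21% of all genes were called higher in RFP+ cells. Among them, the homeobox gene Gbx2 (20.3 ± 4.75 CPM) and the forkhead gene Foxc2 (19.7 ± 8.35 CPM) were read in RFP+ cells and had no read in GFP+ cells (adjusted p = 0.0112 and 0.0122). In spheroids, 12 genes of the list were tested, and the call favored RFP+ cells for 8 and GFP+ cells for 2 (median 1.51, against -0.02 for all genes), where 37.8% and 40.1% of all genes were so called. Foxc2 was at 38.4 ± 9.53 against 0.754 ± 2.01 CPM (adjusted p = 1.32e-34). Foxc1 was at 42.7 ± 13.6 against 8.55 ± 6.44 CPM (adjusted p = 3.11e-21). Endothelial markers summed to 194 to 481 CPM in embryo RFP+ cells with all 8 detected, and to 2.15 to 94.7 CPM in GFP+ cells with Pecam1, Cdh5, Tie1, Emcn and Sox7 at 0. In spheroids they summed to 6.84 to 226 CPM in RFP+ and 11.6 to 73.3 CPM in GFP+ wells, and their part in the Tbx1 difference was not tested. The epithelial markers Epcam (64.2 ± 77.0 CPM, adjusted p = 0.0192 without a filter) and Cdh1 (35.7 ± 41.1 CPM, adjusted p = 0.0372) were also read in embryo RFP+ cells and had no read in embryo GFP+ cells. They were the only 2 called of 10 endodermal markers tested without a filter, where 10.8% of all genes were called higher in RFP+ cells. With the filter, 2 endodermal markers were tested and 1 was called, toward GFP+ cells. The 11 endodermal markers summed to 248 to 676 CPM in embryo RFP+ and 312 to 490 CPM in embryo GFP+ wells, where 7 of them were at 0, and their part was not tested.

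Tbx18, which is required in the sinus horns and marks the proepicardium and the epicardium, was patchy in embryos. On chromosome 9 (chr9:87702800-87731260, minus strand), it was read in embryo GFP+ wells D12 (141 CPM) and E12 (142 CPM) and had no read in A12, B12 or C12. In embryo RFP+ cells it was at 16.0 CPM in F12 and 32.3 CPM in G11 and at 0 in G12 and H11. Each embryo population was thus split into wells with and without Tbx18, and the populations overlapped. The means of 56.6 ± 77.4 CPM (SD, n = 5) and 12.1 ± 15.5 CPM (SD, n = 4) did not differ beyond that spread (log2 fold change -2.26, SE 2.26, edgeR adjusted p = 0.792; exact permutation p = 0.841).

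In spheroids, Tbx18 was read in 45 of 46 RFP+ wells (97.8%, 88.5% to 99.9%), each of them with at least 3 reads, and in 15 of 38 GFP+ wells (39.5%, 24% to 56.6%). Levels ran from 0 to 39.6 CPM (median 10.7) in RFP+ and from 0 to 9.13 CPM (median 0) in GFP+ wells. The mean Tbx18 level was 12.7 ± 8.47 CPM (SD, n = 46) in RFP+ cells and 1.41 ± 2.62 CPM (SD, n = 38) in GFP+ cells, 9.04-fold apart (pooled ratio 8.78, counting interval 7.15 to 10.9). It was the only member above the filter on low counts in vitro, with a log2 fold change of 3.03 (SE 0.35, edgeR adjusted p = 7.73e-13), in a comparison where 37.8% of all genes were called higher in RFP+ cells. Between sources, the RFP+ means were close (log2 fold change 0.04, SE 0.56, adjusted p = 0.967). In GFP+ cells Tbx18 was 40.1-fold lower in spheroids (pooled ratio 42.6, 34.2 to 53.4), with a log2 fold change of -5.06 (SE 0.77, adjusted p = 1.82e-07), although 3 of the 5 embryo GFP+ libraries had no read. The uncharacterized gene D030062O11Rik shares 970 exon bases with Tbx18 on the other strand, and counting by strand is not stated, so its reads could be included.

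Other genes of the sinus horn and epicardium were looked at beside Tbx18. Of 8 listed, 3 were tested in vivo and none was called (Shox2 17.8 ± 13.9 against 1.06 ± 2.11 CPM, Tcf21 12.2 ± 19.6 against 82.6 ± 40.1 CPM, Aldh1a2 40.1 ± 57.0 against 66.0 ± 40.2 CPM in GFP+ and RFP+ cells), while 1377 of all genes tested in the same edgeR fit had an unadjusted p under 0.05. Upk1b, an epithelial and mesothelial uroplakin picked out after its values were seen, was the only one of the 8 to be read in the same GFP+ wells as Tbx18, with 100 CPM in D12, 145 CPM in E12 and 0 in the other 3. Hcn4, whose reporter defines the GFP+ cells, was read in all 5 GFP+ wells, at 1.08, 33.3, 6.20, 32.7 and 1.07 CPM, and in RFP+ well H11 alone (1.43 CPM). In spheroids, 1 list gene was tested and called: Aldh1a2, the retinoic acid synthesizing enzyme of the posterior SHF, was at 20.5 ± 22.5 CPM in GFP+ and 81.7 ± 52.4 CPM in RFP+ cells (log2 fold change 1.89, adjusted p = 4.82e-11). Without a filter, all 8 were tested, with 3 called toward RFP+ cells (Aldh1a2, Upk1b and Sema3d) and 3 toward GFP+ cells, the opposite direction to Tbx18. The latter were Hcn4 (7.36 ± 4.46 against 0.445 ± 0.666 CPM, adjusted p = 1.37e-19), Shox2 (3.79 ± 2.54 against 0.76 ± 1.10 CPM, adjusted p = 9.49e-08) and Wt1 (1.37 ± 1.97 against 0.386 ± 1.5 CPM, adjusted p = 0.00149). GFP+ cells were sorted by the Hcn4 reporter, so the Hcn4 call was set by the sort, which leaves Shox2 and Wt1. Over all genes, 24.7% were called toward RFP+ and 35.3% toward GFP+ cells without a filter.

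The repressors Tbx2 and Tbx3 were low throughout. Tbx3 (chr5:119670669-119684724, plus strand), which shapes the conduction system and is also expressed in endoderm and embryonic stem cells, lies 147.9 kb from Tbx5. It was at 43 CPM in embryo GFP+ well D12 and 21.4 CPM in E12 and had no read in A12, B12 or C12, the same wells that did and did not show Tbx18. All 4 embryo RFP+ wells read it, at 7.29, 11.2, 5.91 and 6.45 CPM in F12, G11, G12 and H11. Tbx3 was therefore read in every RFP+ well and in 2 of 5 GFP+ wells, whose libraries detected fewer genes (6189 to 8302 against 10263 to 13052), and the part of this in the zeros was not tested. The means of 12.9 ± 19.2 CPM (SD, n = 5) and 7.72 ± 2.42 CPM (SD, n = 4) did not differ beyond the spread (log2 fold change -0.77, SE 1.69, edgeR adjusted p = 0.942; exact permutation p = 0.476). The sign depended on the scale, since the mean log2 CPM of Tbx3 was 0.987 higher in RFP+ cells.

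In spheroids, Tbx3 was the most widely read member in GFP+ cells, in 37 of 38 wells (97.4%, 86.2% to 99.9%), the exception being C9, and it was read in 38 of 46 RFP+ wells (82.6%, 68.6% to 92.2%). Levels ran from 0 to 23.4 CPM (median 7.88) in GFP+ and from 0 to 12.7 CPM (median 2.27) in RFP+ wells. The mean Tbx3 level was 8.09 ± 4.63 CPM (SD, n = 38) against 2.53 ± 2.36 CPM (SD, n = 46), which is 3.19-fold higher in GFP+ cells (pooled ratio 3.18, counting interval 2.70 to 3.74). Tbx3 had a log2 fold change of -1.63 without a filter (SE 0.25, edgeR adjusted p = 2.99e-08; permutation p = 1e-05). Pluripotency markers moved with it, from 46.3 to 1560 CPM summed in GFP+ and 5.28 to 551 CPM in RFP+ wells, with all 6 detected in both. The summed level of the endodermal markers given above was also higher in GFP+ cells, although 3 of the 11 were called toward RFP+ cells without a filter. The part of either in the Tbx3 difference was not tested. Spheroid and embryo GFP+ cells did not differ detectably in Tbx3 (log2 fold change -0.49, or -1.16 relative to the median gene, SE 0.56, adjusted p = 0.459), and without well D12 the value was 0.81. In RFP+ cells Tbx3 was 3.05-fold lower in spheroids than in embryos (log2 fold change -1.57, SE 0.61, adjusted p = 0.0383), in a comparison where 20.1% of all genes were called lower in spheroids. That call was lost without embryo RFP+ well G11 (log2 fold change -1.33, adjusted p = 0.158). The antisense gene Tbx3os1 shares 115 exon bases with Tbx3, and its reads could be included as well.

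Tbx2 (chr11:85832551-85841948, plus strand), the repressor of the atrioventricular canal and outflow tract, was read in embryo GFP+ well B12 (3.03 CPM, 7 reads) and in RFP+ wells G11 (3.51 CPM) and G12 (0.844 CPM), and in no other embryo library. These few reads did not separate the populations (exact permutation p = 0.563). In spheroids, Tbx2 was read in 28 of 38 GFP+ wells (73.7%, 56.9% to 86.6%) and in 4 of 46 RFP+ wells (8.70%, 2.42% to 20.8%). Levels ran from 0 to 5.77 CPM (median 0.822) in GFP+ and from 0 to 2.25 CPM (median 0) in RFP+ wells, and the means of 1.56 ± 1.73 CPM (SD, n = 38) and 0.0965 ± 0.375 CPM (SD, n = 46) were 16.2-fold apart (pooled ratio 13.8, counting interval 6.73 to 32.7). The log2 fold change was -3.22 without a filter (SE 0.43, edgeR adjusted p = 2.85e-10; permutation p = 1e-05). At 400000 reads a Tbx2 read would be expected in 39.6% of GFP+ and 3.14% of RFP+ wells. Tbx2 in GFP+ cells was not called between spheroids and embryos (log2 fold change 1.17, SE 1.01, adjusted p = 0.35). It was called without well B12 (adjusted p = 0.0144), which leaves no embryo GFP+ library with a Tbx2 read.

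Tbx4 lies 44.5 kb from Tbx2 on chromosome 11 (chr11:85886422-85916097, plus strand). It had no read in any of the 9 embryo libraries, where 3 counts per library would correspond to 2.57 CPM in GFP+ and 2.24 CPM in RFP+ cells. This level is a convention and no limit of detection, since Tbx2 was read at 0.844 CPM in embryo RFP+ well G12. A level too low to give a read at this depth could have been missed. In spheroids it was read in 35 of 38 GFP+ wells (92.1%, 78.6% to 98.3%) and in 15 of 46 RFP+ wells (32.6%, 19.5% to 48.0%). Levels of Tbx4 ran from 0 to 18.3 CPM (median 4.17) in GFP+ and from 0 to 3.25 CPM (median 0) in RFP+ wells, and the means of 5.07 ± 4.62 CPM (SD, n = 38) and 0.437 ± 0.798 CPM (SD, n = 46) were 11.6-fold apart (pooled ratio 12.5, counting interval 8.61 to 18.8). The log2 fold change was -3.40 without a filter (SE 0.39, edgeR adjusted p = 8.80e-13; permutation p = 1e-05). Against embryo GFP+ cells, spheroid GFP+ cells had at least 1.97-fold more Tbx4 than 3 counts per embryo library would give (edgeR adjusted p = 5.03e-05). With no embryo read of Tbx4, only this direction was open to the test. Per kilobase, Tbx4 (1.49 CPM per kb) and Tbx3 (1.22 CPM per kb) were the highest members in spheroid GFP+ cells and did not differ beyond their spread (SD 1.36 and 0.70).

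**Figure D4:**
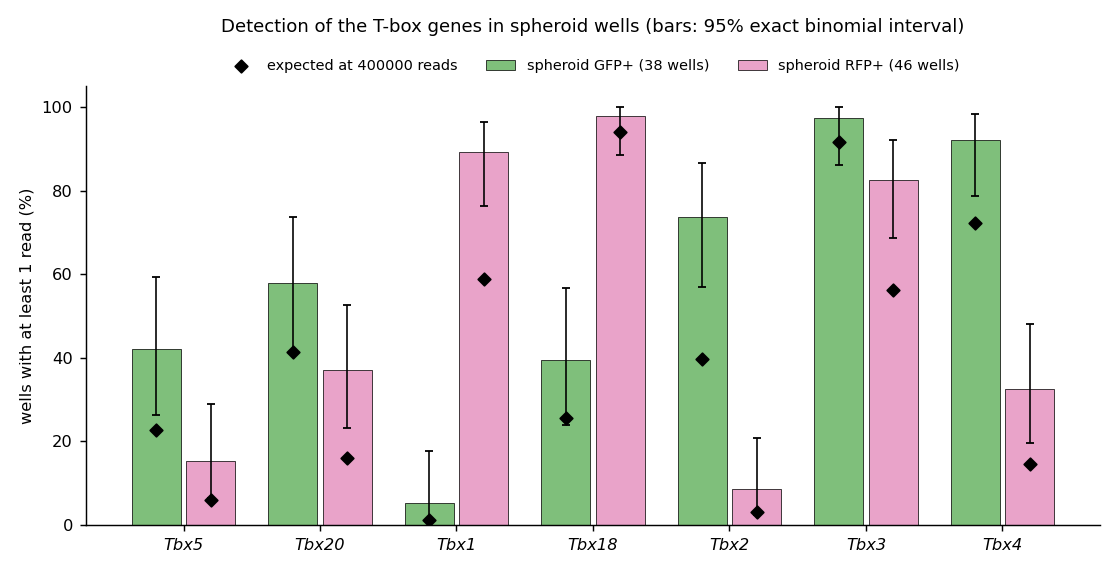
Share of spheroid wells with at least 1 read of each T-box gene (bars, with 95% exact binomial intervals) in 38 GFP+ and 46 RFP+ wells, and the share expected if each well were thinned to 400000 reads (diamonds, leaving out C9). Tbx2, Tbx4 and Tbx1 differ most in detection, Tbx2 and Tbx4 toward GFP+ and Tbx1 toward RFP+ wells, while Tbx3 is read in most wells of both.

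In the spheroid comparison, all 7 members were called without a filter on low counts, Tbx1 and Tbx18 toward RFP+ and the other 5 toward GFP+ cells. RFP+ cells were sorted by a label that Tbx1-Cre turns on, so the Tbx1 call was favored by the sort. DESeq2 called all 7 in the same directions. Calls were common in this comparison, since without a filter 24.7% of all genes were called toward RFP+ and 35.3% toward GFP+ cells, and DESeq2 called 49.2% in either direction. No member was free of overlap between the populations, which 0.916% of all genes were. The calls stayed with near-identical wells summed, with plate row as a covariate and without C9. A spheroid GFP+ well had reads of 0 to 6 of the 7 members (median 4), and an RFP+ well of 1 to 6 (median 4). Within RFP+ wells, Tbx1 and Tbx18 had the highest correlation of any pair of members (r = 0.388 over 46 wells, which include the near-identical pairs), and within GFP+ wells Tbx3 and Tbx20 did (r = 0.358 over 37 wells), both weak in counts this sparse.

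Other members called between RFP+ sources without a filter were Tbx2 (log2 fold change -2.70, SE 0.77, edgeR adjusted p = 0.00734) and Tbx20 (-2.54, SE 0.84, adjusted p = 0.023), both lower in spheroids, where 13.2% of all genes were. Tbx2 lost its call without embryo RFP+ well G11 (adjusted p = 0.692) and Tbx20 without F12 (adjusted p = 0.16). Tbx5 in RFP+ cells, at 0.716 CPM in embryos and 0.207 CPM in spheroids, was not called (adjusted p = 0.259).

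The 10 other T-box genes were followed as well. In embryos, Mga, a large and widely expressed T-box protein, was the only one tested, at 139 ± 146 CPM in GFP+ and 94.5 ± 35.1 CPM in RFP+ cells (adjusted p = 0.91). The primitive streak gene Eomes and the presomitic gene Tbx6 had no read in any embryo library, and T (brachyury) had 1. In spheroids, T was at 17.6 ± 18.4 CPM in GFP+ and 60.8 ± 28.4 CPM in RFP+ cells (adjusted p = 5.99e-10), and Tbx6 at 1.74 ± 1.54 and 11.8 ± 7.89 CPM (adjusted p = 4.27e-15). Mga went the other way, at 382 ± 62.4 and 209 ± 30.2 CPM (adjusted p = 9.76e-35). Over all genes tested, 37.8% were called toward RFP+ cells and 40.1% toward GFP+ cells. Without a filter, Eomes (3.49 ± 5.97 against 9.48 ± 10.5 CPM, adjusted p = 0.00233) and Tbx22 (0.0873 ± 0.279 against 2.17 ± 3.43 CPM, adjusted p = 5.35e-09) were also higher in RFP+ cells. So were Tbx15 (0.769 ± 1.73 against 1.88 ± 2.45 CPM, adjusted p = 0.027) and Tbx10 (0.0676 ± 0.272 against 0.191 ± 0.727 CPM, adjusted p = 0.08). Tbx10 rested on 12 reads in 6 RFP+ wells and 4 reads in 3 GFP+ wells. The share of all genes called toward RFP+ cells without a filter was 24.7%. Tbr1, Tbx21 and Tbx19 were not called, and Tbx19 had no read in any of the 93 libraries. Per kilobase of exon in spheroid RFP+ cells, T (26.3 CPM per kb) and Tbx6 (6.56 CPM per kb) stood above Tbx18 (2.70 CPM per kb), the highest cardiac member, and Eomes (2.28 CPM per kb) stood below it.

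Bmp signaling induces several cardiac T-box genes, and 8 of its common target genes were followed. In embryos, Id2 was higher in GFP+ cells (1340 ± 202 against 622 ± 131 CPM, adjusted p = 0.00659) and Id3 higher in RFP+ cells (231 ± 128 against 759 ± 137 CPM, adjusted p = 0.0303). The other 4 tested, Id1 among them (84.5 ± 41.4 against 184 ± 50.0 CPM, adjusted p = 0.37), were not called. In spheroids, 5 of 6 tested were called toward GFP+ cells and 1 toward RFP+ cells (median log2 fold change -0.78), where 40.1% and 37.8% of all genes were so called. They were led by Msx2, a homeobox target (30.4 ± 21.2 against 2.57 ± 3.62 CPM, adjusted p = 2.92e-19). Id2 was again higher in GFP+ cells (397 ± 140 against 243 ± 87.3 CPM, adjusted p = 2.16e-09) and Id3 in RFP+ cells (253 ± 85.4 against 391 ± 96.1 CPM, adjusted p = 2.03e-09). Of the 10 partner genes, 6 were tested in spheroids, and 4 were called toward GFP+ and 1 toward RFP+ cells (median -1.19). Those toward GFP+ cells included Hand2 (17.3 ± 9.89 against 0.82 ± 1.53 CPM, adjusted p = 3.09e-24) and the Hippo coactivator gene Wwtr1 (60.7 ± 22 against 23.6 ± 11.4 CPM, adjusted p = 5.47e-20). Sall4 (207 ± 46.2 against 354 ± 52.7 CPM, adjusted p = 2.95e-22) was higher in RFP+ cells. Of 3 chamber genes tested there, Atp2a2 (83.7 ± 13.9 against 122 ± 20.7 CPM, adjusted p = 2.15e-13) and Cited1 (64.1 ± 27.6 against 89.7 ± 34.5 CPM, adjusted p = 0.00177) were higher in RFP+ cells and Gja1 (250 ± 62.3 against 278 ± 43.8 CPM) was not called. Without a filter, 11 chamber genes were tested, and 5 were called toward each population, where 24.7% of all genes were called toward RFP+ and 35.3% toward GFP+ cells. Those toward GFP+ cells, Nppb, Smpx, Ryr2, Nppa and Irx4, had mean levels of 0.0297 to 2.87 CPM there.

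For each member, genes whose log2(CPM + 1) correlated best with it over all 93 libraries were listed, as a description of shared pattern in libraries that also share sorts, plate columns and depth. Tbx5 was most like Alpk2 (r = 0.863), Myh6 (0.858) and Mybpc3 (0.847), and Tbx20 like Csrp3 (0.886), Myh6 (0.874) and 5430431A17Rik (0.860), of which Myh6, Mybpc3 and Csrp3 are cardiac muscle genes. Over the 84 spheroid libraries alone, r was 0.527 for Tbx5 with Alpk2, which was also its best match there, 0.0331 with Myh6 and 0.331 with Mybpc3. For Tbx20 it was 0.563 with Csrp3, 0.442 with Myh6 and 0.417 with 5430431A17Rik. Tbx1 was most like Foxd2os (0.793), Tcf15 (0.780) and Six2 (0.776), and Tbx18 like Col23a1 (0.733), Cbx5 (0.672) and Mtap (0.667). Tcf15 is known from paraxial mesoderm and Six2 from head and kidney mesenchyme, and the authors of the study count Six2 among SHF genes. Tbx4 was most like Rasgef1a (0.754) and Gna15 (0.748), Tbx2 like Anxa5 (0.611) and Slc34a3 (0.602), and Tbx3 like Tsen54 (0.621), Stard10 (0.617) and Lekr1 (0.615). Over spheroid libraries alone, r was 0.789 for Tbx1 with Foxd2os, 0.624 for Tbx2 with Anxa5 and 0.730 for Tbx4 with Rasgef1a.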

How the data were processed

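RNA of 10 sorted cells per well was amplified and sequenced for 93 libraries of GFP+ and RFP+ cells. The authors used Trimmomatic 0.36 for trimming (quality of at least 35, length of at least 36), HISAT2 2.0.4 for mapping to mm10 and featureCounts of Subread 1.5.2 for counting. They deposited the raw read counts per gene symbol, which were used unchanged. Molecular identifiers and strand setting are not given in the sources used here, so intervals and limits from counts cover counting error only, and depth sets which low levels can be seen.

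Groups came from the sample labels. Genes were tested with edgeR 4.0.16 (R 4.3.3, TMM, filterByExpr with minimum count 10, minimum total 15 and proportion 0.7, quasi-likelihood F-test) on the libraries of each comparison, with Benjamini-Hochberg adjustment over all genes tested and calls at adjusted p under 0.1. Members below the filter take their values from the same fit without it. SE is the log2 fold change over the root of F. Single members were also tested by two-sided permutation of mean log2 CPM (prior count 2, 13 tests, p not adjusted). The difference between sources used t with 7 degrees of freedom. Scripts were tested on simulated data. Correlations used log2(CPM + 1). Exon lengths and positions are from GENCODE M21 (23726 symbols matched), and promoters from RefSeq. The named genes are the 7 members, other T-box genes, the 3 genes of smallest adjusted p of each list in each source and the 3 genes most like each member, with exceptions marked. A few genes that this rule names are not reported here. The members and the gene lists were chosen with earlier results of these data known. Alternatives were DESeq2 1.42.0, RLE scaling, no filter, a threshold of 0.05, plate row as a covariate, summed or left-out wells, another prior count, a minimum of 3 reads, thinning to 700000 reads and Spearman's rho.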

Additional observations from a re-analysis of the deposited data

Results flagged for a closer look

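The Tbx2 level of embryo GFP+ well B12, 3.03 CPM from 7 reads, stands apart from the other 4 embryo GFP+ wells, which had no read of Tbx2. In all, 11 groups of embryo libraries were examined in this way, and chance marks about 1 in 20.

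The change of Tbx20 from GFP+ to RFP+ cells differed between spheroids and embryos by 4.71 on the log2 scale without a filter on low counts (SE 0.80, adjusted p = 0.0827). Tbx20 was below the filter in spheroids, so that the main test gave no value for it.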

How the results depend on the processing

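In embryos 2 members were called, 2 with DESeq2, 3 without a filter and 2 whichever library was left out. In spheroids 1 member was called with the filter and 7 without it or with DESeq2, since 6 lie below the filter. Between RFP+ sources the count was 1, with 3 without a filter, 2 with DESeq2 and 0 to 1 when a library was left out (0 without G11). Between GFP+ sources it was 4 in every setting but 1, the fit without both well B12 and a filter, which called 5. The difference between sources called 0 members (with an unadjusted p under 0.05 for 1021 of 8182 genes), 1 without a filter, 3 in 1 joint fit and 0 when a library was left out. Permutation tests passed for 3 members in embryos (2 to 3 when a library was left out) and 7 in spheroids. Over all genes, calls went from 858 to 2000 without a filter and 1936 with DESeq2 in embryos, and from 7747 to 13109 without a filter in spheroids. For the difference between sources they went from 430 to 115 without a filter and 6889 in the joint fit.

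No value that changed sign passed its test. The log2 fold change of Tbx2 in embryos turned to -1.005 without G11. Between GFP+ sources, Tbx3 ran from -0.87 to 0.81 (the latter without D12). Between RFP+ sources, Tbx1 turned to 0.064 without H11, and Tbx18 ran from -0.37 to 1.20, with -0.35 without G12 and -0.37 without H11. The difference of mean log2 CPM in embryos ran from -0.11 (without G11) to 0.69 for Tbx2, and for Tbx18 from -1.48 to 0.45, with 0.44 without D12, 0.45 without E12 and 0.13 without G12 or H11. For Tbx3 in embryos the 2 scales differed in sign (log2 fold change -0.77, difference of mean log2 CPM 0.987). The causes were not tested. Fits that left out wells without a filter were added after the data had been seen. No paired analysis was possible because wells carry no replicate number shared between groups.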
